A study of Oryctolagus cuniculus with 12 samples.

Results

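PPP1R1B, C17orf67, ANGPTL7 and C1QL1 are 4 of the 29587 genes listed in bulk RNA-seq of rabbit ear skin and scar. They were chosen from these same samples, as named genes whose levels stood lowest in untreated or microneedle-treated scar relative to normal skin. The low levels against normal skin in both kinds of scar therefore describe the choice, and fitted values and calls for them below are no independent evidence. What the choice did not use is the 5-Fu-treated scars and how the 4 genes varied together within groups.

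The 4 genes encode proteins of different kinds. PPP1R1B is an intracellular phosphoprotein that inhibits protein phosphatase 1 once protein kinase A has phosphorylated it, and it is best known from dopamine signalling in the brain. ANGPTL7 is a secreted angiopoietin-like glycoprotein studied mainly in the cornea and the outflow tissue of the eye, and C1QL1 is a secreted protein with a C1q domain that binds the adhesion receptor ADGRB3 at synapses. C17orf67 is a little-characterised open reading frame. Hypertrophic scar is raised fibrous tissue in which fibroblasts deposit excess collagen after a wound to the dermis.

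All groups consisted of female rabbits with the label WT, aged 10 to 12 weeks, with tissue taken on day 43 and 3 rabbits in each group. Normal skin (NS) came from rabbits without wounds, and hypertrophic scar (HS) had formed after skin was removed from the ventral ear and received no treatment. In the drug-loaded MNs group 1 separating microneedle patch with a 5-fluorouracil acetic acid prodrug was applied to each lesion, and in the 5-Fu injection group 120 µg of 5-fluorouracil in 0.1 mL was injected. Both were given on days 22, 29 and 36. Drug-free microneedles were not analysed here, so an effect of the patch and an effect of the drug cannot be told apart, and the treatments differ in compound, dose form and route at once. The tissue was the full thickness of the ear, which includes cartilage and uninjured dorsal skin, so fewer cells of a type and less RNA per cell cannot be told apart either. The paper calls the 3 samples of each group biologically independent. The labels number them as replicates without saying which rabbit or lesion each came from. P-values measure the spread between these samples, which may include technical variation.

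Reads on genes, counted back from the FPKM values, ranged from 10521472 to 14043667 per sample. FPKM is the number of fragments on a gene per unit of its length and of the scaled library. Among the 5-Fu samples, replicate 2 stood apart. The summed FPKM of 7 scar matrix fibroblast genes, led by COL1A1 and COL1A2, was 26892 in it and 5010 and 6725 in the other 5-Fu samples. The sum was 37473 to 49110 in HS and 2430 to 3415 in NS. In drug-loaded MNs it was 19058 to 27335, so 5-Fu injection replicate 2 lay inside the range of that treatment. Among the normal samples, NS replicate 3 had a smooth muscle and pericyte sum of 1473 against 227 and 307 in the others, and NS replicate 2 an interferon response sum of 909 against 59.0 and 315. Fits of the members in 5-Fu injection against HS and against NS are given with and without it. Between the 2 treatments the range over single samples left out is given. Group means and within-group correlations include it.

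PPP1R1B (ENSOCUG00000021711) lies on the forward strand of chromosome 19 from 40883578 to 40892254, in the coordinates of the deposited table, with 1946 bases of counted length. Its FPKM was 121.6, 49.4 and 117.5 in NS replicates 1 to 3, and 0.523, 5.47 and 8.76 in the HS replicates. The mean fell from 96.2 ± 40.5 (SD, n = 3) in NS to 4.92 ± 4.15 in HS, which is 5.12% of the normal level. The lowest normal sample stood above the highest scar sample. HS replicate 1 was the extreme, with 11 reads on the gene (95% Poisson interval 5.49 to 19.7, counting error only).

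In treated scars PPP1R1B read above every untreated scar in 5 of 6 samples. After drug-loaded MNs the 3 samples read 11.4, 31.1 and 15.6 FPKM, a mean of 19.3 ± 10.4 or 20.1% of NS. Each of them lay above every HS sample and below every NS sample. After 5-Fu injection the values were 39.4, 2.00 and 81.1, a mean of 40.8 ± 39.6 or 42.5% of NS. The spread in that group was 40.6-fold from lowest to highest, with replicate 3 inside the range of normal skin and replicate 2 inside the range of untreated scar.

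C17orf67 (ENSOCUG00000026474) lies on the forward strand of chromosome 19 from 31203419 to 31222780, with a counted length of only 270 bases, so its values rest on 6 to 286 reads per sample. The FPKM was 52.4, 49.8 and 90.2 in NS and 2.06, 8.80 and 5.44 in HS. The means were 64.2 ± 22.6 and 5.43 ± 3.37 (SD, n = 3), and HS stood at 8.47% of NS. In HS replicate 1 the 6 reads gave a 95% Poisson interval of 2.20 to 13.1 reads.

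For C17orf67 the treated samples split within each group. Drug-loaded MNs replicates 1 and 3 read 6.78 and 4.81 FPKM, inside the HS range, and replicate 2 read 20.5. With 5-Fu injection replicates 1 and 3 read 21.9 and 20.2, above all HS samples, and replicate 2 read 3.24. The group means of 10.7 ± 8.54 and 15.1 ± 10.3 amounted to 16.7% and 23.6% of NS, and no treated sample came near the lowest normal sample.

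ANGPTL7 (ENSOCUG00000013081) was the most abundant of the 4 by far, ranking 155th of 29587 genes by mean FPKM. It is placed on the unlocalised scaffold GL018927 from 294940 to 299460 on the reverse strand, with a counted length of 1091 bases. The 3 NS samples read 1430, 1125 and 1157 FPKM and the HS samples 76.5, 107 and 227. The mean fell from 1237 ± 167 (SD, n = 3) to 137 ± 79.8, or 11.1% of NS. Even the lowest sample, HS replicate 1, held 902 reads on this gene, so counting error was a small part of the spread.

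Of the treated scars 5 of 6 read above every untreated scar for ANGPTL7. The drug-loaded MNs samples read 277, 405 and 140 FPKM, a mean of 274 ± 132 or 22.2% of NS. Of these, replicate 3 was inside the HS range and the other two lay above it. The 5-Fu samples read 552, 296 and 616, a mean of 488 ± 170 or 39.4% of NS, and every one of them lay above every HS sample and below every NS sample. This was the one member whose 5-Fu replicate 2 also stayed above untreated scar.

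C1QL1 (ENSOCUG00000026203) lies on the forward strand of chromosome 19 from 45347549 to 45354110, with a counted length of 1152 bases. Its FPKM was 53.2, 26.5 and 32.8 in NS and 2.73, 5.35 and 5.59 in HS. The means were 37.5 ± 13.9 and 4.56 ± 1.59 (SD, n = 3), so HS stood at 12.1% of NS. Drug-loaded MNs samples read 2.17, 10.1 and 4.43 (mean 5.57 ± 4.09), and 5-Fu samples read 0.972, 4.30 and 6.83 (mean 4.03 ± 2.94).

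Only 2 of the 6 treated samples read above every untreated scar for C1QL1, against 3 of 6 for C17orf67, and all stayed below every normal sample. Its lowest value of all belonged to 5-Fu injection replicate 1, with 14 reads, a sample in which the other 3 genes were well above untreated scar.

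**Figure D1:**
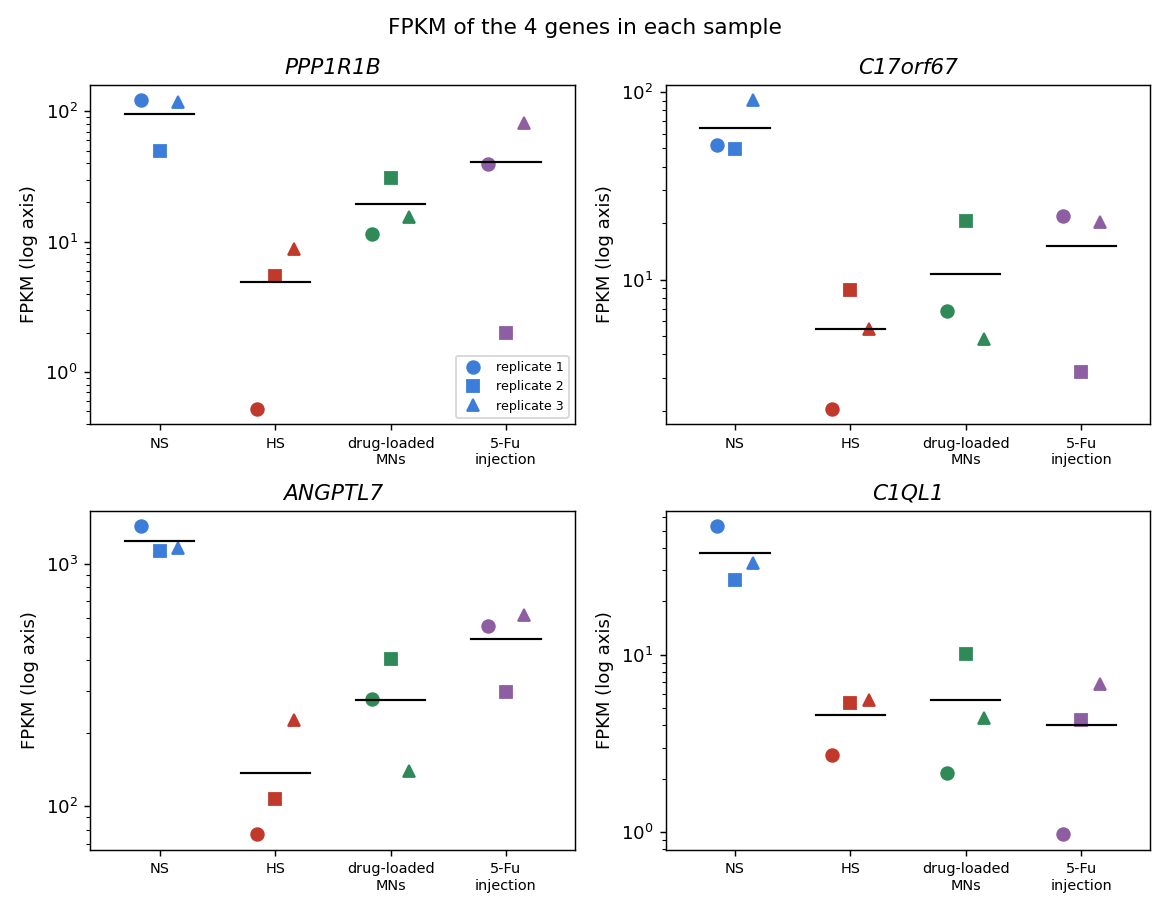
FPKM (log axis) of PPP1R1B, C17orf67, ANGPTL7 and C1QL1 in each of the 12 samples, with symbols for replicate numbers and a black line at the mean of each group of 3. All HS and drug-loaded MNs points lie below all NS points, the 5-Fu square (replicate 2) is the lowest 5-Fu point for the first 3 genes, and the treated C1QL1 points overlap HS.

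The orders of the group means differed accordingly. PPP1R1B, C17orf67 and ANGPTL7 ran from NS through 5-Fu injection and drug-loaded MNs down to HS, whereas C1QL1 ran from NS through drug-loaded MNs and HS down to 5-Fu injection. Between the 2 treatments, which are neighbours in the first order, the samples of all 4 genes overlapped. Between drug-loaded MNs and HS only PPP1R1B did not overlap.

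Differences were fitted with limma on log2(FPKM + 1) over 13287 genes, and a gene was called at an adjusted p (Benjamini-Hochberg over all genes tested) under 0.05 with an absolute log2 fold change above 1. All 4 members passed the filter of a mean FPKM of at least 1. Relative to NS, the log2 fold change in HS was −4.30 ± 1.06 (SE) for PPP1R1B, −3.44 ± 0.68 for C17orf67, −3.31 ± 0.45 for ANGPTL7 and −2.78 ± 0.54 for C1QL1. All 4 were called lower, where 1.48% of the genes tested were, and all 4 had groups that did not overlap, where 15.3% of the genes did. Both counts follow from the choice of the genes. Without HS replicate 1, the values were −3.50, −2.98, −2.97 and −2.51 and ANGPTL7 alone remained called.

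In drug-loaded MNs relative to NS, the fitted values were −2.27 ± 1.06, −2.66 ± 0.68, −2.29 ± 0.45 and −2.68 ± 0.54 in the same order. ANGPTL7 and C1QL1 were called and PPP1R1B and C17orf67 were not, with 0.0828% of genes called lower. The calls of ANGPTL7 and C1QL1 held under 9 and 7 of 21 alternatives and were lost with the replicate number as a block (adjusted p = 0.0974 and 0.0646, in ranges from 0.0297 to 0.159 and from 0.0218 to 0.176). None of the 4 overlapped NS, where 9.11% of genes were lower without overlap. These also follow from the choice.

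Ranked by log2 fold change among the 149 named genes called lower in HS than in NS, PPP1R1B came first, then the chemokine CCL19 at −3.99 and C17orf67. The next after C17orf67 were ANGPTL7 itself and PPP1R3C, a glycogen-targeting subunit of protein phosphatase 1, at −3.25, and C1QL1 was number 11. Among the 9 named genes called lower in drug-loaded MNs than in NS, C1QL1 came first, then the chemokine CCL20 at −2.58 and ANGPTL7. The actin-associated gene FAM107A at −2.07 and the neural crest factor SOX10 at −1.74 were next.

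The comparisons of treated with untreated scar were not used to choose the genes, although they share the HS samples, and for drug-loaded MNs also the treated samples, with that choice. A gene chosen for low values in HS is favoured to stand higher elsewhere, and a gene chosen for low values in drug-loaded MNs, as C1QL1 could be, is favoured to show little return there. On the log2 scale ANGPTL7 was 1.91 ± 0.45 (SE) higher after 5-Fu injection than in HS (95% interval 0.91 to 2.90, limma adjusted p = 0.0421), higher in 9 of 9 pairs of samples. It was the only member called in this comparison, in which 0.512% of genes were called higher and 13.9% were higher without overlap. The call was marginal, with an adjusted p from 0.0192 to 0.139 over 21 alternatives, of which 7 kept it. It was lost without any single HS or NS sample, drug-loaded MNs replicate 1 or 2, or 5-Fu injection replicate 1 or 3 (adjusted p from 0.0516 upwards), while without 5-Fu injection replicate 2 the value was 2.23 (adjusted p = 0.0192).

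PPP1R1B was 2.23 ± 1.06 higher after 5-Fu injection than in HS (95% interval −0.11 to 4.57, adjusted p = 0.211), and 7 of 9 pairs had the treated sample higher. Without 5-Fu injection replicate 2 the difference was 3.65 and was called (adjusted p = 0.0169, the lowest of a range up to 0.533 over the alternatives). With each sample left out in turn the difference ran from 1.26 to 3.65, so that omission gave its upper end. For C17orf67 the difference was 1.14 ± 0.68 (interval −0.37 to 2.65, adjusted p = 0.316). It was 1.93 without 5-Fu injection replicate 2 (adjusted p = 0.0571, the lowest of a range up to 0.612), the upper end of 0.68 to 1.93 over single samples left out. C1QL1 differed by −0.31 ± 0.54 (interval −1.50 to 0.88, adjusted p = 0.750), with the treated sample higher in 4 of 9 pairs, and by −0.46 without replicate 2 (adjusted p = 0.669 in a range from 0.495 to 0.915).

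No member was called between drug-loaded MNs and HS, where 0.00753% of all genes were called higher. The differences were 2.03 ± 1.06 for PPP1R1B (95% interval −0.31 to 4.37, adjusted p = 0.614), 0.78 ± 0.68 for C17orf67 (interval −0.73 to 2.28, adjusted p = 0.797), and 1.02 ± 0.45 for ANGPTL7 (interval 0.03 to 2.01, adjusted p = 0.554). For C1QL1 the difference was 0.10 ± 0.54 (interval −1.09 to 1.29, adjusted p = 0.974). The treated sample was higher in 9, 6, 8 and 4 of 9 pairs for PPP1R1B, C17orf67, ANGPTL7 and C1QL1. PPP1R1B, the member without overlap, stood beside 8.53% of all genes that were higher without overlap. The intervals for PPP1R1B and ANGPTL7 include rises as large as those after 5-Fu injection.

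Against NS, 5-Fu injection left C1QL1 lower by a log2 fold change of −3.09 ± 0.54 (95% interval −4.28 to −1.90, adjusted p = 0.0835). For PPP1R1B, C17orf67 and ANGPTL7 the values were −2.07, −2.30 and −1.40, with adjusted p of 0.377, 0.205 and 0.227. Of all genes tested limma called 0% lower here, with 1981 genes at an unadjusted p under 0.05 in either direction. Groups did not overlap for C17orf67, ANGPTL7 and C1QL1, beside 9.16% of all genes that were lower without overlap. Without 5-Fu injection replicate 2 the values became −0.65 for PPP1R1B, −1.51 for C17orf67, −1.08 for ANGPTL7 and −3.23 for C1QL1. With each sample left out in turn they ran, in this order, from −3.03 to −0.65, −2.73 to −1.51, −1.60 to −1.08 and −3.51 to −2.52.

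Between the 2 treatments limma called no member, and 0% of all genes in either direction, with 2009 genes at an unadjusted p under 0.05 (limma voom also called 0). Drug-loaded MNs minus 5-Fu injection was −0.20 ± 1.06 for PPP1R1B (95% interval −2.54 to 2.14), −0.36 ± 0.68 for C17orf67 (−1.87 to 1.14), −0.89 ± 0.45 for ANGPTL7 (−1.88 to 0.10) and 0.41 ± 0.54 for C1QL1 (−0.78 to 1.60). The adjusted p values were 0.942, 0.823, 0.373 and 0.744. Such intervals leave room for differences of several-fold in either direction for PPP1R1B. With each sample left out in turn, PPP1R1B ran from −1.62 to 0.77 and C17orf67 from −1.16 to 0.06. Both lower ends were without 5-Fu injection replicate 2. ANGPTL7 ran from −1.23 to −0.47 and C1QL1 from −0.16 to 0.84.

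**Figure D2:**
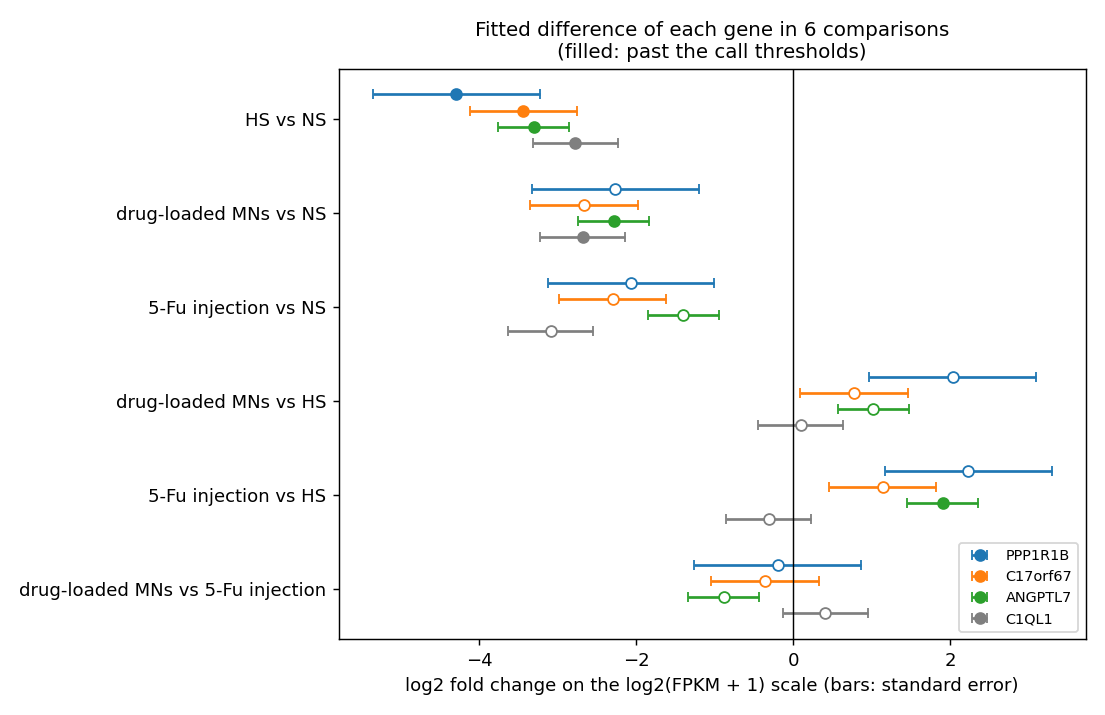
Fitted log2 fold change of each gene on the log2(FPKM + 1) scale in the 6 comparisons, with standard errors as bars, filled where called. Values against NS are all below 0, and in the comparisons with HS only ANGPTL7 after 5-Fu injection is filled, at 1.91, while C1QL1 lies near 0.

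How far each treated sample had returned was placed on a scale set by the members' own means on log2(FPKM + 1), with 0 at HS and 1 at NS. For PPP1R1B the drug-loaded MNs samples stood at 0.334, 0.653 and 0.432, and the 5-Fu samples at 0.730, −0.142 and 0.969. ANGPTL7 stood at 0.352, 0.516 and 0.056 under drug-loaded MNs, and at 0.651, 0.379 and 0.699 under 5-Fu injection. In C17orf67 the values were 0.125, 0.551 and 0.002, then 0.578, −0.130 and 0.546.

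Replicates 1 and 3 of 5-Fu injection thus stood past the midpoint for these 3 genes, and replicate 2 of drug-loaded MNs did so as well. C1QL1 had its drug-loaded MNs samples, which had a part in its choice, at −0.276, 0.376 and 0.004 and 5-Fu samples at −0.522, −0.008 and 0.194. Over the 196 genes called lower in HS than in NS, the median position was 0.471 in drug-loaded MNs and 0.518 in 5-Fu injection. By sample it was 0.453, 0.551 and 0.452 for drug-loaded MNs, and 0.677, 0.263 and 0.641 for 5-Fu injection. Group means of the members were 0.473 ± 0.164 and 0.519 ± 0.585 for PPP1R1B, 0.226 ± 0.288 and 0.331 ± 0.399 for C17orf67, 0.308 ± 0.233 and 0.576 ± 0.172 for ANGPTL7, and 0.035 ± 0.327 and −0.112 ± 0.369 for C1QL1 (SD, n = 3, drug-loaded MNs first).

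PPP1R1B, C17orf67 and ANGPTL7 also deviated together within groups. With each group's mean removed from log2(FPKM + 1), Pearson's r over the 12 samples was 0.86 between PPP1R1B and C17orf67, 0.72 between PPP1R1B and ANGPTL7, and 0.70 between C17orf67 and ANGPTL7. C1QL1 gave 0.31, 0.21 and 0.32 with these genes. The points share libraries and, for 5-Fu injection, the sample that stood apart, so these are descriptions.

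The ratio of ANGPTL7 to C1QL1 in FPKM showed the separation in single samples. It was 26.9 to 42.4 in NS and 20.0 to 40.7 in HS, since both genes fell by similar factors. In drug-loaded MNs it was 128, 40.1 and 31.7, and in the 5-Fu samples 568, 68.7 and 90.2. All 5-Fu samples lay above all NS and HS samples in this ratio, but the 568 rests on 14 C1QL1 reads in replicate 1. The ratios of ANGPTL7 to PPP1R1B and to C17orf67 in the 5-Fu samples overlapped those of NS and HS. The share of other gene pairs that separate in this way was not computed.

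Genes next to the members were read beside them. STARD3, a lipid transfer gene that begins 542 bases after PPP1R1B, had a mean of 24.0 FPKM in NS and 19.8 in HS (log2 fold change −0.27, adjusted p = 0.215). CDK12, a transcription kinase on the other side, had 5.62 and 5.35 (−0.06, adjusted p = 0.876). Around C1QL1, DCAKD had 15.4 and 21.8 (0.49, adjusted p = 0.246), and GFAP, the filament of glial cells, had 31.5 and 13.0 (−1.33, adjusted p = 0.128).

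Beside C17orf67, the lipid kinase gene DGKE had 3.55 FPKM in NS and 2.16 in HS (−0.52, adjusted p = 0.144). On its other side, 192 kb away, NOG was called lower in HS. NOG encodes noggin, a secreted antagonist of bone morphogenetic proteins, and had 21.4 ± 6.50 in NS and 4.78 ± 0.33 in HS (−1.91, adjusted p = 0.00733, called under all 21 alternatives). Its mean was 9.22 ± 1.93 in drug-loaded MNs and 9.95 ± 5.89 in 5-Fu injection, and was not called between either treatment and HS (adjusted p = 0.527 and 0.162). Without 5-Fu injection replicate 2, NOG stood 1.07 above HS on the log2 scale after 5-Fu injection (limma adjusted p = 0.0675).

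ANGPTL7 lies within MTOR, the growth-control kinase gene, on the opposite strand. The strand setting of the counting is not given in the sources used here, so reads from the shared stretch cannot be assigned by strand. MTOR stayed between 8.76 and 11.9 FPKM in all 12 samples (log2 fold change in HS against NS 0.04, adjusted p = 0.878), while ANGPTL7 ranged from 76.5 to 1430. EXOSC10, the nearest gene outside it, had 18.1 in NS and 14.8 in HS (−0.27, adjusted p = 0.297). On chromosome 19 as a whole, which holds 3 of the members, 16 of 665 genes tested were called lower in HS, or 2.41%, beside 1.48% over all genes, and the 3 members are among the 16.

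Lists of relatives of the members were read beside them, each drawn up by hand. None of the 18 tested signalling partners of PPP1R1B was called in any of the 6 comparisons by limma. Of all genes tested, 1.48% were called lower and 3.53% higher in HS against NS. In the other comparisons at most 1.78% were called in either direction, so 0 of 18 is near these shares. The partners' median log2 fold change in HS against NS was 0.15, beside −0.01 over all genes tested. The most abundant, the phosphatase 1 catalytic subunit PPP1CC, had 106 FPKM in NS and 74.8 in HS (adjusted p = 0.123). The kinase A regulatory subunit PRKAR1A had 74.6 and 98.3 (adjusted p = 0.262), and the catalytic subunit PPP1CA 64.7 and 72.8 (adjusted p = 0.511). PPP1R3C, the phosphatase 1 subunit called lower in HS, was not on this list. The dopamine receptor gene DRD1 averaged 1.57 FPKM over all samples, and DRD2 and GNAL were below the filter.

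The angiopoietin family list also held the receptor genes TEK and TIE1 and the fibrinogen-like gene FGL2. Of its 10 tested genes, 1 was called, and that gene ran opposite to ANGPTL7. ANGPTL2, a secreted relative linked to inflammation and tissue remodelling, had 33.3, 21.7 and 48.3 FPKM in NS and 373, 246 and 217 in HS. In drug-loaded MNs it had 202, 126 and 128, and after 5-Fu injection 59.8, 129 and 69.2. The HS samples lay above all NS samples, as they did for 18% of the genes tested, and all treated samples lay between them.

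ANGPTL2 was higher in HS than in NS by 3.01 ± 0.35 on the log2 scale (adjusted p = 0.0013, called under all 21 alternatives). In drug-loaded MNs it was 2.15 above NS (adjusted p = 0.0232, called under 15 of 21 alternatives), where 0.79% of genes were called higher. After 5-Fu injection it was 1.73 ± 0.35 below HS. The latter gave an adjusted p of 0.0295, called under 12 of 21 alternatives, and it was −2.06 without 5-Fu injection replicate 2. The median log2 fold change of the 10 genes in HS against NS was −0.21, since the members that were not called lay mostly below 0.

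Among 15 tested genes of the C1q domain family, 5 were called higher in HS than in NS and 0 lower (1.48% of all genes were), with a median log2 fold change of 1.00 beside −0.01 over all genes. Of all genes tested, 3.53% were called higher. The called genes were the C1q and tumour necrosis factor related genes C1QTNF5 (176 ± 87.4 to 530 ± 156 FPKM) and C1QTNF1 (146 ± 22.7 to 337 ± 62.8), the elastic fibre gene EMILIN1 (42.4 ± 1.60 to 199 ± 38.1), and the short-chain collagens COL8A1 (56.2 ± 21.9 to 172 ± 17.5) and COL8A2 (18.9 ± 5.54 to 77.0 ± 7.48). C1QTNF5 lost its call under 4 of 21 alternatives and C1QTNF1 under 1, and the other 3 kept theirs. MMRN2, a multimerin of vessel walls, had 82.1 ± 7.77 FPKM in NS and 49.7 ± 10.8 in HS, and its log2 fold change of −0.73 (adjusted p = 0.0444) missed the fold threshold.

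After 5-Fu injection 3 of these were called lower than in HS, where 1.78% of all genes were. They were COL8A2 at −2.24 (adjusted p = 0.0205), EMILIN1 at −1.34 (adjusted p = 0.0372) and COL8A1 at −1.31 (adjusted p = 0.0373). These calls held under 17, 11 and 11 of 21 alternatives. Without 5-Fu injection replicate 2 the values were −2.50, −1.73 and −1.33 in the same order. The closest relatives of C1QL1 in the table, C1QL3 and C1QL4, and its receptor gene ADGRB3 averaged below the filter of 1 FPKM.

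**Figure D3:**
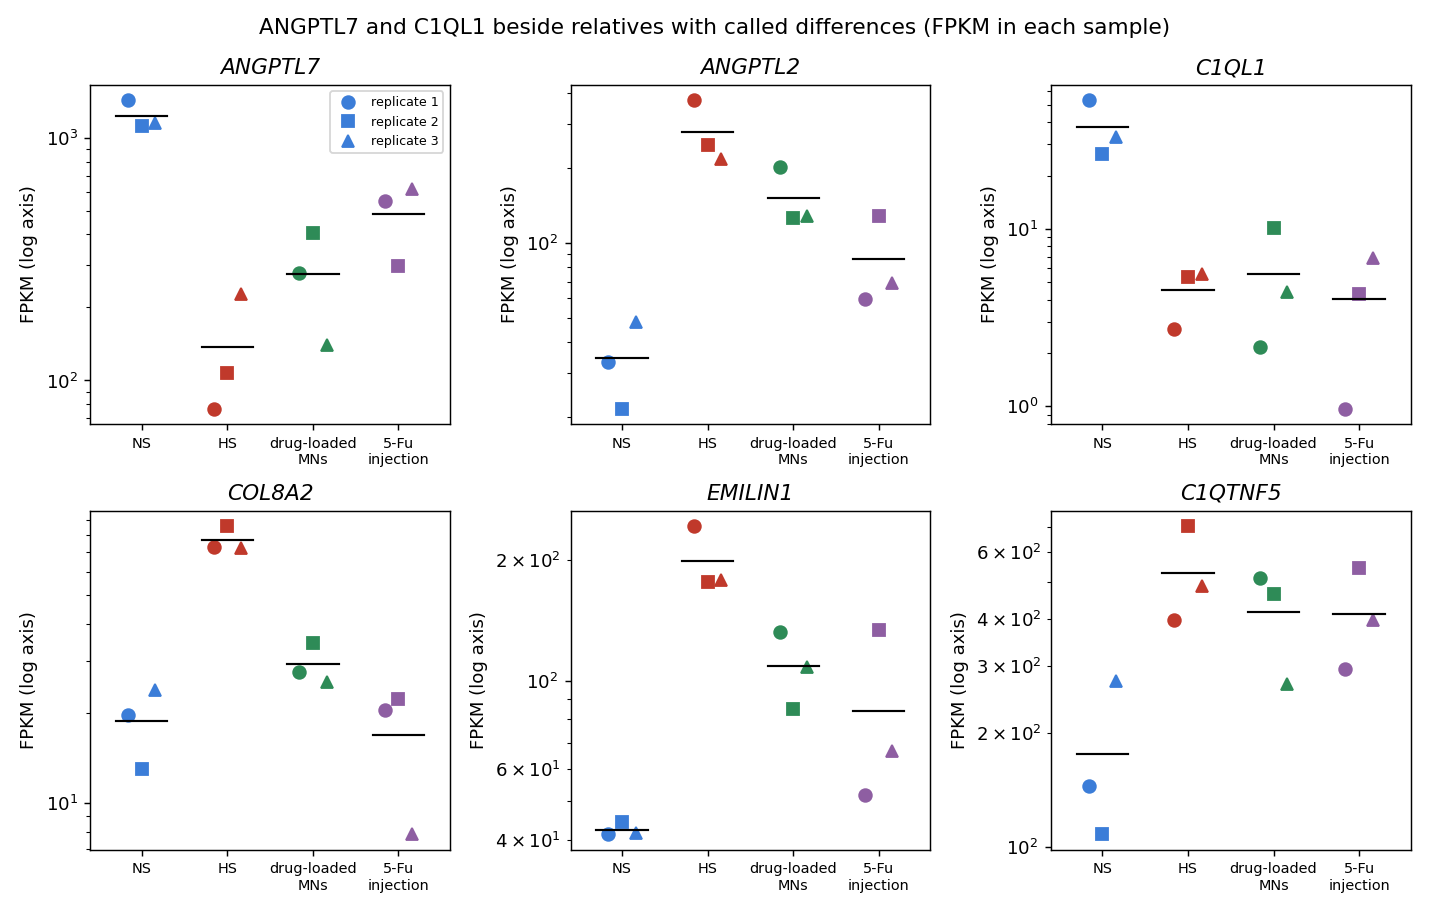
FPKM (log axis) of ANGPTL7, ANGPTL2, C1QL1, COL8A2, EMILIN1 and C1QTNF5 in each of the 12 samples, with a black line at the mean of each group of 3. ANGPTL2, COL8A2, EMILIN1 and C1QTNF5 are higher in HS than in NS, opposite to ANGPTL7 and C1QL1.

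Other genes followed the members' patterns over the 12 samples. Over 9449 tested genes with a symbol, the 3 with the highest Pearson's r of log2(FPKM + 1) with PPP1R1B were the actin-severing gene SCIN (0.99), the cyclooxygenase gene PTGS1 (0.98) and the aldolase gene ALDOC (0.98). ALDOC averaged 550 ± 246 FPKM in NS, 51.3 ± 49.6 in HS, 115 ± 56.7 in drug-loaded MNs and 241 ± 191 in 5-Fu injection. C17orf67 was the 27th most alike at 0.92, ANGPTL7 the 73rd at 0.87 and C1QL1 the 736th at 0.63.

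Most alike to C17orf67 were FAM107A (0.96), DIXDC1 (0.95) and the kinesin gene KIF6 (0.95). FAM107A averaged 58.8 ± 16.6 FPKM in NS, 9.77 ± 4.04 in HS, 13.2 ± 3.83 in drug-loaded MNs and 17.1 ± 7.24 in 5-Fu injection. For ANGPTL7 they were TMCC2 (0.94), CATSPER4 (0.94) and the cadherin gene CDH20 (0.93), all of them far less abundant, with NS means of 10.9, 2.33 and 2.99 FPKM.

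For C1QL1 they were the neurturin receptor gene GFRA2 (0.97), STRIP2 (0.92) and INKA2 (0.92). GFRA2 averaged 19.5 ± 1.83 FPKM in NS, 12.0 ± 1.36 in HS, 13.3 ± 2.40 in drug-loaded MNs and 10.8 ± 2.71 in 5-Fu injection. As with C1QL1, its treated groups stayed at the level of untreated scar, although its fall from NS was smaller. The 12 points share 4 groups, so a high r marks a similar order of groups.

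Marker genes of the cell types that a full thickness ear holds moved with the members in several samples. Schwann cell markers summed to 442 to 1060 FPKM in NS, 138 to 231 in HS and 154 to 331 in drug-loaded MNs. In 5-Fu injection the sums were 714 in replicate 1, 155 in replicate 2 and 459 in replicate 3, and PPP1R1B, C17orf67 and ANGPTL7 were likewise lowest in replicate 2. Among the 7 tested markers, SOX10 had 39.7 ± 17.7 FPKM in NS and 10.4 ± 2.01 in HS and was called lower in HS (log2 fold change −1.77, adjusted p = 0.0115). None was at 0 in all samples, and their part in the members' levels was not tested.

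Scar matrix fibroblast genes ran the other way, with all 7 called higher in HS than in NS. Their sum was 19058 to 27335 in drug-loaded MNs, beside the 5-Fu values given above. The sum of keratinocyte markers, led by KRT10 and KRT1, was lowest in HS at 1469 to 2086. It was 2441 to 4125 in NS, 4008 to 9301 in drug-loaded MNs and 3029 to 5767 in 5-Fu injection. Of the 7 markers, 6 had a log2 fold change below 0 in HS against NS and 2 were called lower. DSC1 differed, with a mean of 37.7 FPKM in NS, 40.5 in HS and 31.3 in 5-Fu injection. The defining markers KRT5 and COL1A1 were present in every sample. Cartilage markers varied within every group, from 503 to 5749 over all samples, with 0 of 9 called in HS against NS. Of all genes tested, 1.48% were called lower and 3.53% higher in that comparison.

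Smooth muscle, skeletal muscle and interferon response lists had 0 of 5, 0 of 4 and 0 of 7 genes called in HS against NS. Over all genes tested, 1.48% were called lower and 3.53% higher, so 0 calls in lists this short do not show that levels were unchanged. The median log2 fold changes of these 3 lists were −1.19, −1.24 and −2.07, beside −0.01 over all genes. Endothelial sums stayed within 262 to 402 in all samples, adipocyte sums within 274 to 630 and immune cell sums within 50.6 to 179. Sebaceous gland sums were 102 to 297, hair follicle sums 66.2 to 1261, glandular epithelium sums 10.2 to 33.1 and melanocyte sums 15.1 to 104, with 0 genes of these lists called in HS against NS. The part of any of these cell types in the levels of the 4 genes was not tested.

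**Figure D4:**
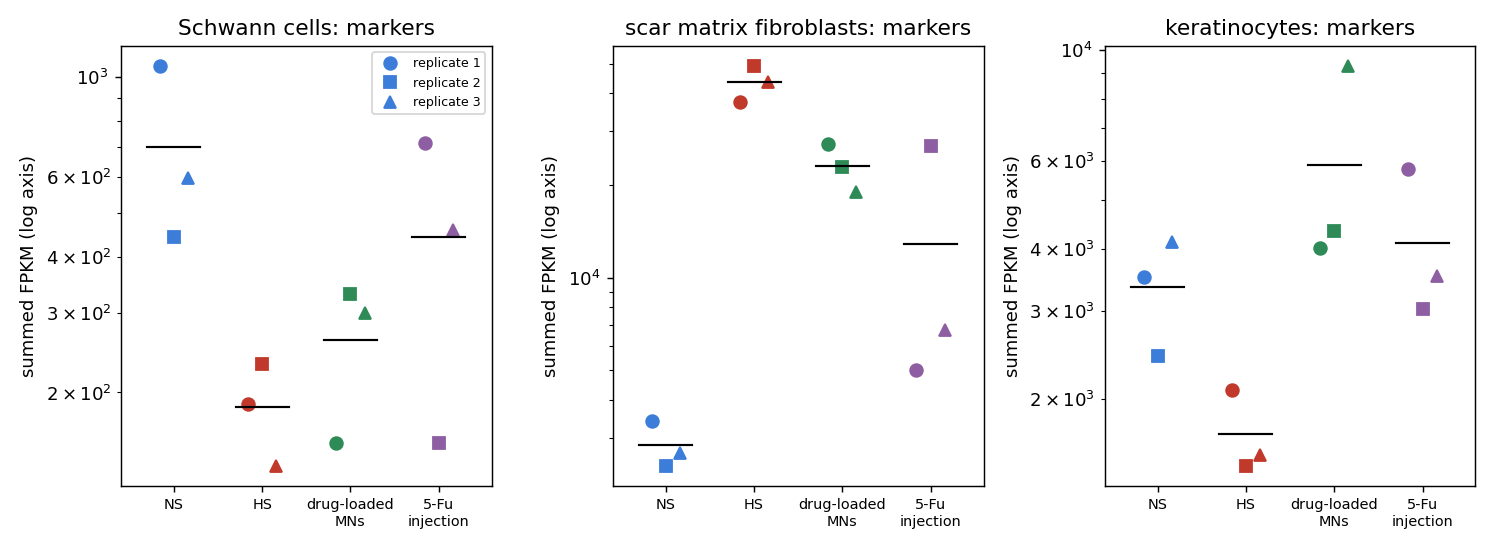
Summed FPKM (log axis) of the markers of Schwann cells, scar matrix fibroblasts and keratinocytes in each of the 12 samples, with a black line at the mean of each group of 3. The 5-Fu square (replicate 2) lies with HS for Schwann cells at 155 and inside the range of drug-loaded MNs for matrix fibroblasts at 26892.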

How the data were processed

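Bulk RNA-seq was read for 12 samples in 4 groups of 3, grouped by label. The deposited table holds FPKM values made by the authors, with gene lengths and coordinates. The aligner, counting tool, strand setting and genome build are not given in the sources used here, and no gene sequence was analysed. The paper describes mRNA purified with poly-T beads, and the labels name a SMARTER kit. Multiplied by gene length, 100% of the values of each sample were whole multiples of 1 step (tolerance 0.02), from which reads were counted back. The library size implied by the step, divided by the reads on genes, was 0.873 to 1.20, so the FPKM values carry a further scaling between samples.

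Genes averaging 1 FPKM or more (13287) were fitted in 1 limma 3.58.1 model (R 4.3.3) of the 4 groups on log2(FPKM + 1), using a mean-variance trend. P-values were adjusted by Benjamini-Hochberg in each comparison. A fold change on this scale understates that of low genes. The model was tested on simulated data. The authors tested counts with DESeq2, which was not used here.

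The members, gene lists and tests were chosen with earlier results of these data known. Genes named are the 4 members, the 3 genes most alike to each, the neighbours on each side, list genes called in any comparison (else the 3 most abundant), defining markers and the genes next in order of fold. DRD1, DRD2, GNAL, C1QL3, C1QL4, ADGRB3 and MMRN2 are named besides and were chosen after their values were seen. Alternatives were a pseudocount of 0.1, no filter, a mean FPKM of at least 5, rescaling to total reads, quantile normalization, only the groups compared, no trend, the replicate number as a block, limma voom on the reads counted back, and each sample left out in turn. An exact test of 3 samples against 3 cannot go below p = 0.1 and was not used. Some single marker genes are not reported here. P-values measure the spread between these samples.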

Additional observations from a re-analysis of the deposited data

How the results depend on the processing

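Members called relative to NS in drug-loaded MNs were 2, but 1 with a pseudocount of 0.1, with only the groups compared and with limma voom on the reads counted back, and 0 with no filter, without the trend and with the replicate block. For 5-Fu injection against HS the count of 1 (ANGPTL7) became 0 with no filter (adjusted p = 0.0757), quantile normalization (0.059), only the groups compared (0.107) and the replicate block (0.0748), in a range from 0.0192 to 0.139. Leaving out 1 sample at a time gave 1 to 4 members in HS against NS, 0 to 3 in drug-loaded MNs against NS and 0 to 2 in 5-Fu injection against HS, and 0 in the other comparisons. Without single samples the sign turned for C1QL1 in drug-loaded MNs against HS (−0.38 to 0.53) and in 5-Fu injection against HS (−0.74 to 0.26), and between the treatments for PPP1R1B (−1.62 to 0.77), C17orf67 (−1.16 to 0.062) and C1QL1 (−0.16 to 0.84). No other setting turned a sign, and the causes were not tested. In HS against NS all 4 members stayed called in 7 of the other settings, with 3 called under no filter and under voom.

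Replicate numbers did not pair the samples, since the groups were different rabbits and the mean correlation of same-numbered deviations ran from −0.19 (NS with drug-loaded MNs) to 0.12 (NS with 5-Fu injection). With the replicate block, genes called went from 665 to 579 in HS against NS and from 304 to 99 in 5-Fu injection against HS, and from 116 to 23 in drug-loaded MNs against NS. Among the 5-Fu samples, the one that each NS sample correlated best with had its own number. The r of these pairs was only 0.054 to 0.198, and the best match of each 5-Fu sample was not computed. This is a hint from the data and not the design. The voom fit called 680, 363 and 98 genes in the same comparisons. With FPKM rescaled to total reads, the genes tested had a median log2 fold change of −0.33 in HS against NS, −0.19 in both treatments against NS, 0.11 in drug-loaded MNs against HS and 0.13 in 5-Fu injection against HS, and no member changed direction or call. Counts of 6 to 40 reads limit the lowest values of PPP1R1B, C17orf67 and C1QL1.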
